A study of Homo sapiens with 6 samples.

Results

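The long intergenic noncoding RNAs that carry a LINC number and were expressed in U251 cells were examined after overexpression of STING. A gene was included when its symbol was LINC followed by exactly 5 digits and when its read counts, summed over all 6 libraries, reached at least 450. This gave 153 of the 1206 LINC genes in the deposited tables, which listed 42307 genes in all. Of the 1053 left out, 190 had no count in any library. The choice used the summed level over both groups and not the difference between them, so levels are described without a test and the differences are tested.

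U251 is an established human glioblastoma cell line. The STING-OE group was 3 libraries from U251 cells transfected for 3 days with a plasmid that overexpresses STING, the membrane adaptor that relays the sensing of cytosolic DNA to interferon and inflammatory genes. The NC group was 3 libraries from U251 cells transfected for the same time with negative control plasmids. The genotype was labelled WT in both groups, each was given 1 ug of plasmid per well, and no untransfected cells were among the samples used here. No label tells whether replicates came from separate cultures, and the p-values therefore measure only the spread between these libraries, which may be technical.

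Long intergenic noncoding RNAs are transcripts, often spliced and polyadenylated, that lie apart from protein-coding genes and have no long conserved reading frame. The LINC number is a placeholder in human gene nomenclature, given until a function is known, so the class is defined by how its genes were found and not by a shared pathway. Some members host microRNAs, some act in cis on a neighbouring gene, some start back to back with a coding gene, and for most no role is established. They are usually less abundant and more cell-type restricted than messenger RNAs.

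Library totals were 75605739 to 76566375 counts in STING-OE and 71498790 to 76158548 counts in NC. Levels below are in CPM, counts scaled to a common library size with TMM factors, and differences are log2 fold changes, STING-OE over NC, tested by the quasi-likelihood method of edgeR, with p-values adjusted (Benjamini-Hochberg) over all 21679 tested genes and a threshold of 0.05. STING1, the gene on the plasmid, had 56.3, 54.7 and 47.3 CPM in STING-OE libraries 1 to 3, against 36.2, 37.1 and 31.2 CPM in NC libraries 1 to 3, and all STING-OE values lay above all NC values. Its log2 fold change was 0.60 (standard error, SE, 0.078; edgeR adjusted p = 0.00221). Of the glioma and astrocyte markers, VIM, CD44, TNC, EGFR, NES, SOX2 and GFAP were detected, VIM at 2626 ± 57.3 CPM in STING-OE and 2787 ± 37.1 CPM in NC (SD, n = 3 each), whereas S100B and OLIG2 were near 0 in both groups. GFAP fell to 21.5 ± 3.88 CPM in STING-OE, against 39.1 ± 3.98 CPM in NC (SD, n = 3 each; edgeR adjusted p = 0.0330), TNC fell too, and the part of this in the results below was not tested. Of 5 markers of other cells, PTPRC had 0.937 to 3.08 CPM in STING-OE and 2.12 to 7.64 CPM in NC, EPCAM, PECAM1 and RBFOX3 had at most 1.09 CPM in any library and AIF1 was at or near 0.

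The 153 members were a small fraction of the RNA. They took 0.128%, 0.135% and 0.129% of the counts in STING-OE libraries 1 to 3, against 0.123%, 0.125% and 0.124% in NC libraries 1 to 3, so the groups did not overlap in this share. The summed level was 1271, 1325 and 1288 CPM in STING-OE, against 1252, 1258 and 1247 CPM in NC. Without the 3 members past the threshold, described below, the sums were 1194, 1244 and 1210 CPM in STING-OE and 1191, 1202 and 1187 CPM in NC. The groups then overlapped, but these 3 were chosen by their rise in the same libraries, so a smaller gap was set in advance. In bulk RNA, fewer cells that express a gene and less RNA per cell cannot be told apart.

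In STING-OE 3 of the 153 members rose, 0 fell, and the other 150 were not called. The members called made up 1.96%, against 1.49% of all 21679 genes tested, of which 131 rose (0.604%) and 193 fell (0.89%). When libraries were scaled to their total counts alone, 246 genes rose and 138 fell, and 4 members rose. At an unadjusted p under 0.05 there were 20 members, or 13.1%, against 14.4% of all genes tested and 18.9% of the genes with at least 450 counts in all. These shares are not matched for precision. The median standard error was 0.18 for members, 0.13 for all genes tested and 0.076 for those with at least 450 counts. DESeq2 called 8 members, 6 higher and 2 lower, with 4.76% of all genes called, and limma-voom called 3 members, with 1.45% of all genes called. With a minimum mean of 1 CPM edgeR called 5 members, and 645 of all 14901 genes then tested. With a correction for GC content and transcript length it called 5 members, and 506 of all 21679 genes tested. With 1 library left out, edgeR called 2 to 3 members and between 60 genes (without NC library 1 or 2) and 741 genes (without STING-OE library 1), so the share over all genes rests on which libraries enter the fit.

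The median log2 fold change of the members was 0.04, with quartiles at -0.13 and 0.16, against a median of 0.00 over all genes tested. Within 1.5-fold lay 147 of the 153 members, against 19375 of all 21679 genes tested. Of the 14897 genes with at least 450 counts in all, 14602 did. The extremes were -0.75 for LINC00460 and 0.82 for LINC00520. A positive log2 fold change was found for 86 members (56.2%), against 50.2% of all genes tested and 51.0% of the genes with at least 450 counts in all. With the correction for GC content and transcript length the median of the members was 0.0093, with 80 positive, and without STING-OE library 2 it was 0.017, with 79 positive. Scaling to total counts gave 0.068, with 95 positive, and moved the median over all genes tested to 0.031. All 3 STING-OE libraries lay above all 3 NC libraries for 12 members, and below them for 11, against 10.1% and 9.73% of all genes tested. Together these were 15% of the members, against 19.9% of all genes tested and 23.7% of the genes with at least 450 counts in all. These shares are not matched for level. The median was 3.29 CPM for members, 7.70 CPM for all genes tested and 26.6 CPM for those with at least 450 counts.

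**Figure D1:**
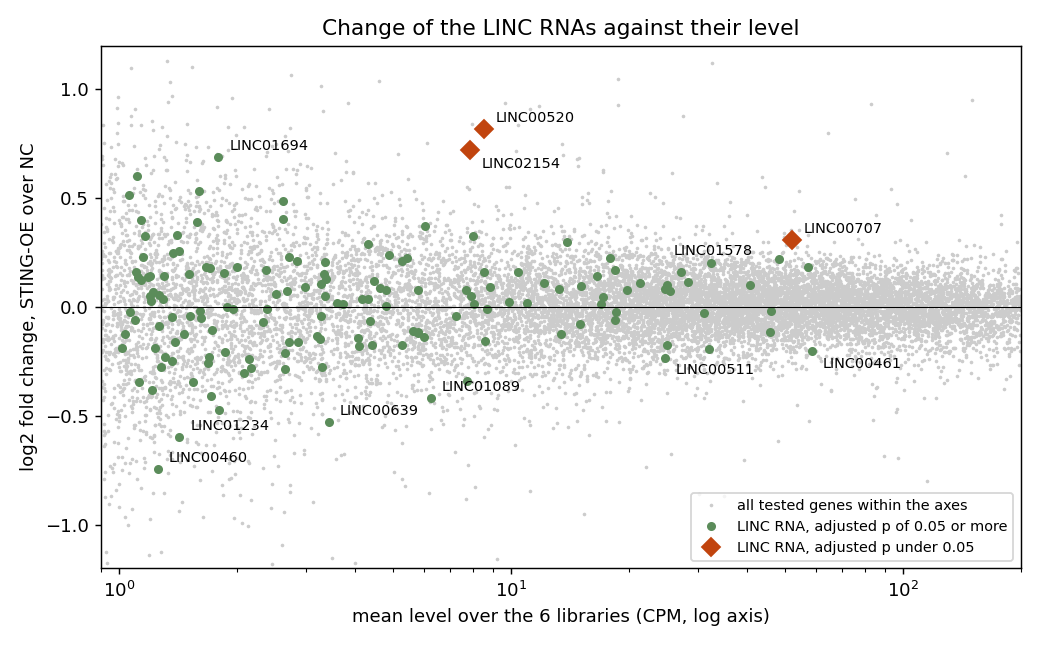
Log2 fold change (STING-OE over NC, vertical axis) against mean level over the 6 libraries (CPM, log axis) for the 153 LINC RNAs, over all tested genes that fall within the axes (grey). Diamonds mark LINC00520, LINC02154 and LINC00707, which had adjusted p under 0.05, and green points the other 150, whose scatter widens as the level falls.

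Precision followed abundance. The median standard error of the log2 fold change was 0.080 for the 34 members of at least 10 CPM, 0.17 for the 64 members of 2 to 10 CPM and 0.27 for the 55 members under 2 CPM. The calls in these classes were 1, 2 and 0. An unadjusted p under 0.05 in edgeR was found for 10 (29.4%), 7 (10.9%) and 3 (5.45%) members of these classes, from the highest to the lowest. The groups did not overlap for 11 (32.4%), 8 (12.5%) and 4 (7.27%). The shares over all genes given above hold genes of every level, so they are not matched to a class. Genes of any kind with at least 450 counts in all numbered 14897, and 2.13% of them were called.

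LINC00520 had the largest difference of all members. It is a spliced RNA from the minus strand of chromosome 14 (ENSG00000258791, chr14:55781132-55796731, GRCh38), also named LEENE for its reported role in enhancing nitric oxide synthase expression in endothelial cells. It had 849, 909 and 753 counts in STING-OE libraries 1 to 3, against 408, 417 and 539 counts in NC libraries 1 to 3. The lowest STING-OE library was 1.39 times the highest NC library in CPM, and the groups were far apart. The mean was 10.9 ± 0.932 CPM in STING-OE and 6.19 ± 0.835 CPM in NC (SD, n = 3 each), a 1.76-fold rise, with a log2 fold change of 0.82 (edgeR adjusted p = 0.00434, SE 0.12).

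No other tested gene overlapped LINC00520. The nearest tested coding gene on its left, KTN1, which encodes the kinesin receptor kinectin, lies 96549 bases away. KTN1 had 260 ± 11.6 CPM in STING-OE and 281 ± 4.74 CPM in NC, a log2 fold change of -0.12 (SD, n = 3 each; edgeR adjusted p = 0.232). On the right PELI2, an E3 ubiquitin ligase of the Pellino family that acts in Toll-like receptor signalling, lies 321083 bases away and had 10.8 ± 0.610 CPM in STING-OE and 12.1 ± 0.832 CPM in NC. Its log2 fold change was -0.16 (edgeR adjusted p = 0.531).

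LINC02154 lies on the minus strand of the X chromosome (ENSG00000235385, chrX:13266048-13303418, GRCh38). It had 768, 763 and 728 counts in STING-OE libraries 1 to 3, against 476, 405 and 426 counts in NC libraries 1 to 3. The STING-OE libraries were close together and the lowest was 1.48 times the highest NC library in CPM. The mean was 9.82 ± 0.213 CPM in STING-OE and 5.95 ± 0.462 CPM in NC (SD, n = 3 each), a 1.65-fold rise, with a log2 fold change of 0.72 (edgeR adjusted p = 0.00520, SE 0.11). The coding genes on either side did not pass the test. TMSB4X, which encodes the actin-binding thymosin beta-4, had 671 ± 37.3 CPM in STING-OE and 721 ± 15.9 CPM in NC at a distance of 288822 bases. TCEANC, a transcription elongation factor family gene, had 1.40 ± 0.0967 CPM in STING-OE and 1.66 ± 0.448 CPM in NC at 349771 bases.

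LINC00707 had the third highest CPM of the members and is on the plus strand of chromosome 10 (ENSG00000238266, chr10:6779549-6842906, GRCh38). It had 4322, 4579 and 4419 counts in STING-OE libraries 1 to 3, against 3566, 3134 and 3579 counts in NC libraries 1 to 3. The groups did not overlap, but the gap was narrower, with the lowest STING-OE library at 1.16 times the highest NC library in CPM. The mean was 57.9 ± 1.5 CPM in STING-OE and 46.7 ± 2.22 CPM in NC (SD, n = 3 each), a 1.24-fold rise, with a log2 fold change of 0.31 (edgeR adjusted p = 0.0116, SE 0.055). This call depended on single libraries. The log2 fold change was 0.29 without STING-OE library 2 (edgeR adjusted p = 0.0607) and 0.27 without NC library 2 (edgeR adjusted p = 0.0898).

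The span of LINC00707 overlaps AL158210 on the same strand, at 0.187 CPM in STING-OE and 0.285 CPM in NC, and AL392086 on the other strand, at 2.54 CPM in STING-OE and 2.32 CPM in NC. Both levels were small beside the 57.9 and 46.7 CPM of LINC00707. To the left, PRKCQ, which encodes protein kinase C theta, had 4.96 ± 0.406 CPM in STING-OE and 4.11 ± 0.464 CPM in NC at a distance of 199248 bases. To the right, SFMBT2, a Polycomb-group gene, lies 315718 bases away. It had 25.1, 23.1 and 25.7 CPM in STING-OE libraries 1 to 3, against 8.03, 7.45 and 23.3 CPM in NC libraries 1 to 3. NC library 3 was at about the level of the STING-OE libraries, and the log2 fold change of 0.93 had a standard error of 0.54 (edgeR adjusted p = 0.566).

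**Figure D2:**
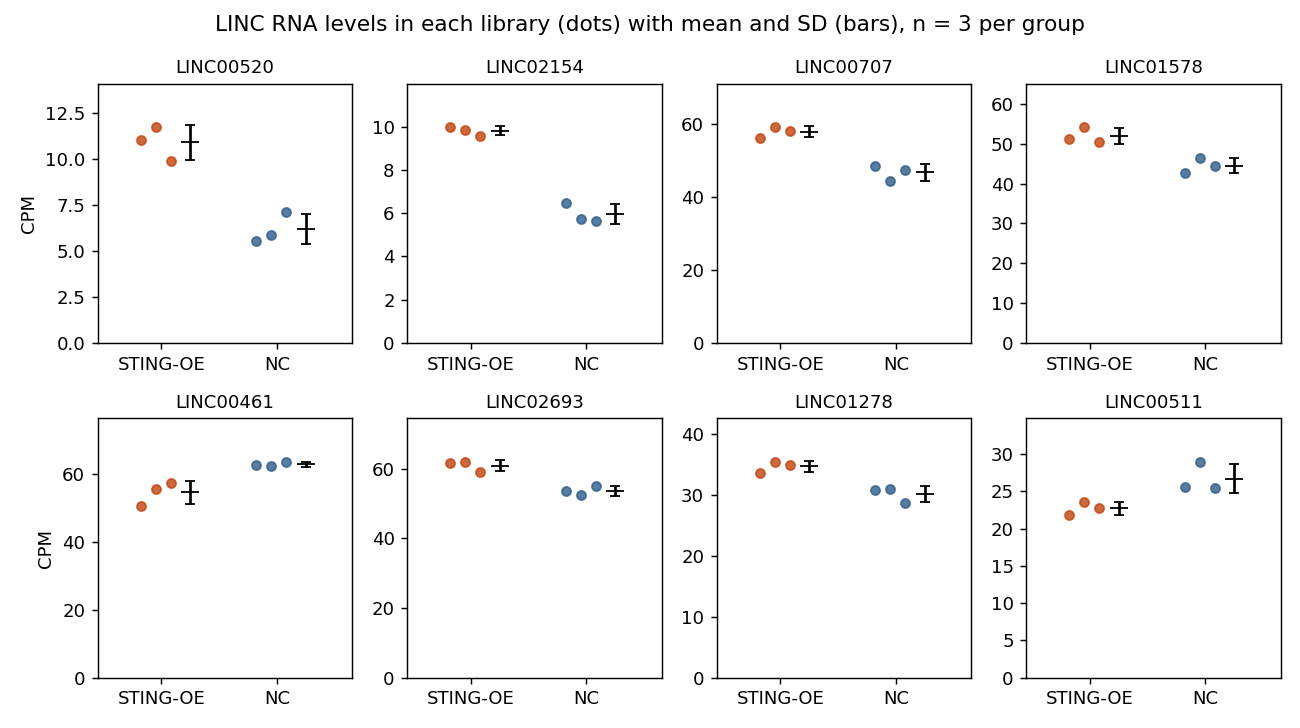
Level (CPM) of 8 LINC RNAs in each library, STING-OE left and NC right, with the mean and SD of 3 libraries as bars. In LINC00520, LINC02154 and LINC00707, the members that passed the test, every STING-OE library lies above every NC library, as it also does in LINC01578, LINC02693 and LINC01278, whereas in LINC00461 and LINC00511 every STING-OE library lies below.

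The 3 members that rose made up 6.08%, 6.10% and 6.03% of all member counts in STING-OE libraries 1 to 3. In NC libraries 1 to 3 they made up 4.84%, 4.44% and 4.82%, a gap that follows from how they were chosen. They lie on 3 chromosomes and differ in read number, with means over the 6 libraries of 8.55, 7.88 and 52.3 CPM. In GENCODE v29 all of them are annotated as intergenic, and 4.49%, 1.29% and 17.4% of the 31-base words of LINC00520, LINC02154 and LINC00707 occur in transcripts of other genes.

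The next members by p-value were close to the threshold without passing it. LINC01578 is the gene that RefSeq names CHASERR, an RNA transcribed just upstream of the chromatin remodeller gene CHD2 and known to restrain it in cis. It had 51.2, 54.3 and 50.3 CPM in STING-OE libraries 1 to 3, against 42.7, 46.4 and 44.4 CPM in NC libraries 1 to 3. The groups did not overlap, and the log2 fold change was 0.22 (SE 0.057; edgeR adjusted p = 0.0640). It passed the threshold in 4 of 15 alternative fits, DESeq2 among them (adjusted p = 0.0109). In limma-voom it did not pass (adjusted p = 0.0793). CHD2 itself, 1446 bases away, had 220 ± 8.55 CPM in STING-OE and 205 ± 1.87 CPM in NC (SD, n = 3 each), with a log2 fold change of 0.10 (edgeR adjusted p = 0.292).

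LINC00461, which RefSeq names MIR9-2HG, had the most counts of all members, 26368 over the 6 libraries. It is the host of MIR9-2, one of the genes for miR-9, a microRNA of neural progenitors and neurons. The levels were 50.6, 55.6 and 57.4 CPM in STING-OE libraries 1 to 3, against 62.5, 62.3 and 63.7 CPM in NC libraries 1 to 3. All STING-OE values were lower, with a log2 fold change of -0.20 (edgeR adjusted p = 0.0850, SE 0.056), and DESeq2 called it (adjusted p = 0.0164). LINC00461 passed in 3 of the 15 alternative fits and not in limma-voom (adjusted p = 0.0985). MEF2C, the coding gene on the right and a transcription factor of neurons and muscle, had 22.2 ± 0.318 CPM in STING-OE and 20.9 ± 0.581 CPM in NC (SD, n = 3 each).

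The mature microRNAs encoded inside LINC00461 and LINC00472 are shown because the libraries measured the host transcripts and not these products. LINC00472 contains MIR30A and MIR30C2 on its own strand. The sequences are those of RefSeq (GRCh38.p14), 5′ to 3′, with the seed, bases 2 to 8, in capitals.
miR-9-5p: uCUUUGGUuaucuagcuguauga
miR-9-3p: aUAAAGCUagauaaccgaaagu
miR-30a-5p: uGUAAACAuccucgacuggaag
miR-30c-5p: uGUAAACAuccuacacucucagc
The miR-30 pair share their seed and so are grouped as a family, and both arms of miR-9 have seeds of their own. LINC00472 had 27.4, 30.6 and 30.0 CPM in STING-OE libraries 1 to 3, against 27.9, 27.0 and 26.5 CPM in NC libraries 1 to 3. The groups overlapped through STING-OE library 1, and the log2 fold change was 0.12 (edgeR adjusted p = 0.480). In all, 7 members contained a microRNA gene, 5 of them with at least 1 on their own strand. LINC00513, at 1.07 CPM in STING-OE and 1.12 CPM in NC, spans MIR29A and MIR29B1, which lie on the other strand.

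LINC02693 was listed as a lncRNA in the deposited tables and as protein-coding in GENCODE v29. It had 61.7, 62.0 and 59.0 CPM in STING-OE libraries 1 to 3, against 53.6, 52.3 and 55.0 CPM in NC libraries 1 to 3. The groups did not overlap, and the log2 fold change was 0.18 (SE 0.052; edgeR adjusted p = 0.0927; DESeq2 adjusted p = 0.0214). LINC02693 passed in 2 of the 15 alternative fits and not in limma-voom (adjusted p = 0.111). LINC01278, on the X chromosome, had 33.5, 35.4 and 34.9 CPM in STING-OE libraries 1 to 3, against 30.7, 31 and 28.6 CPM in NC libraries 1 to 3. Its groups were also apart, with a log2 fold change of 0.20 (edgeR adjusted p = 0.12, SE 0.062; DESeq2 adjusted p = 0.0473). DESeq2 was the only 1 of the 15 alternative fits in which it passed (limma-voom adjusted p = 0.142). The coding gene SPIN4, a histone reader of the spindlin family, lies within the span of LINC01278 on the same strand and had 43.3 ± 0.753 CPM in STING-OE and 43.0 ± 1.23 CPM in NC (SD, n = 3 each).

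Some members with low levels and larger differences did not pass the test, and they are named here after their values were seen. LINC01694 had 2.21 ± 0.187 CPM in STING-OE and 1.37 ± 0.0486 CPM in NC (SD, n = 3 each), with a log2 fold change of 0.69 (edgeR adjusted p = 0.128, SE 0.22). LINC00460, widely described in tumours, had 0.938 ± 0.185 CPM in STING-OE and 1.57 ± 0.239 CPM in NC (SD, n = 3 each). Its log2 fold change was -0.75 (SE 0.27; edgeR adjusted p = 0.188). In both genes the groups did not overlap. LINC00639 was at -0.53, LINC01089 at -0.42 and LINC01234 at -0.60 on the log2 scale, with edgeR adjusted p-values of 0.167, 0.161 and 0.304.

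Among better measured members with lower values in STING-OE, LINC00511, whose nearest coding neighbour on the left is the glial transcription factor gene SOX9, had 22.7 ± 0.868 CPM in STING-OE and 26.7 ± 1.97 CPM in NC (SD, n = 3 each). The log2 fold change was -0.23 (SE 0.074; edgeR adjusted p = 0.137; DESeq2 adjusted p = 0.0489). DESeq2 was the only 1 of the 15 alternative fits in which LINC00511 passed. LINC00963 had 30.0 ± 2.61 CPM in STING-OE and 34.2 ± 0.591 CPM in NC (SD, n = 3 each), a log2 fold change of -0.19 (edgeR adjusted p = 0.193). The groups did not overlap in either gene.

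LINC01293 and LINC01291 lie 7234 bases apart on the plus strand of chromosome 2, and RefSeq gives both the symbol LINC01291, so they are parts of 1 gene there. LINC01293 had 6.81 ± 0.639 CPM in STING-OE and 5.27 ± 0.815 CPM in NC, and LINC01291 had 8.91 ± 1.17 CPM in STING-OE and 7.11 ± 0.745 CPM in NC (SD, n = 3 each). Their log2 fold changes were 0.37 and 0.33, with edgeR adjusted p-values of 0.231 and 0.240. Of 5 pairs of members within 50 kb of each other, 3 had the same sign.

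Levels between genes are compared in the deposited FPKM values, which are scaled for the length of the gene. The median member had 0.733 FPKM over the 6 libraries, with a range of 0.065 to 13.4, against a median of 1.79 FPKM over all genes tested. At least 1 FPKM was reached by 61 members and at least 5 FPKM by 8. LINC00973, a short 2-exon RNA on chromosome 3, was highest per length, with 14, 15.9 and 14.7 FPKM in STING-OE libraries 1 to 3, against 10.4, 13 and 12.3 FPKM in NC libraries 1 to 3. The groups did not overlap, and the log2 fold change from the counts was 0.30 (SE 0.10; edgeR adjusted p = 0.166).

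LINC00623 followed with 9.27 ± 0.596 FPKM in STING-OE and 8.50 ± 0.246 FPKM in NC (SD, n = 3 each). Of its 31-base words 71.4% occur in transcripts of other genes, so its level is uncertain. LINC00888, which RefSeq names SNHG33, a small nucleolar RNA host gene, had 8.43 ± 0.493 FPKM in STING-OE and 7.11 ± 0.298 FPKM in NC, and LINC01578 had 8.25 ± 0.417 FPKM in STING-OE and 6.97 ± 0.221 FPKM in NC (SD, n = 3 each). The libraries of LINC00888 and LINC01578 overlapped in both groups, those of LINC00623 and LINC00888 in STING-OE but not in NC, and LINC00973 stood above all others in every library. LINC01116, LINC00680, LINC00205 and LINC00294 came next, with means over the 6 libraries of 5.77, 5.74, 5.57 and 5.20 FPKM. The ranges of these genes over the 6 libraries overlapped. LINC01116 ran from 5.41 to 6.5 FPKM and LINC00294 from 4.68 to 5.76 FPKM, so the mean of each lay outside the range of the other.

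**Figure D3:**
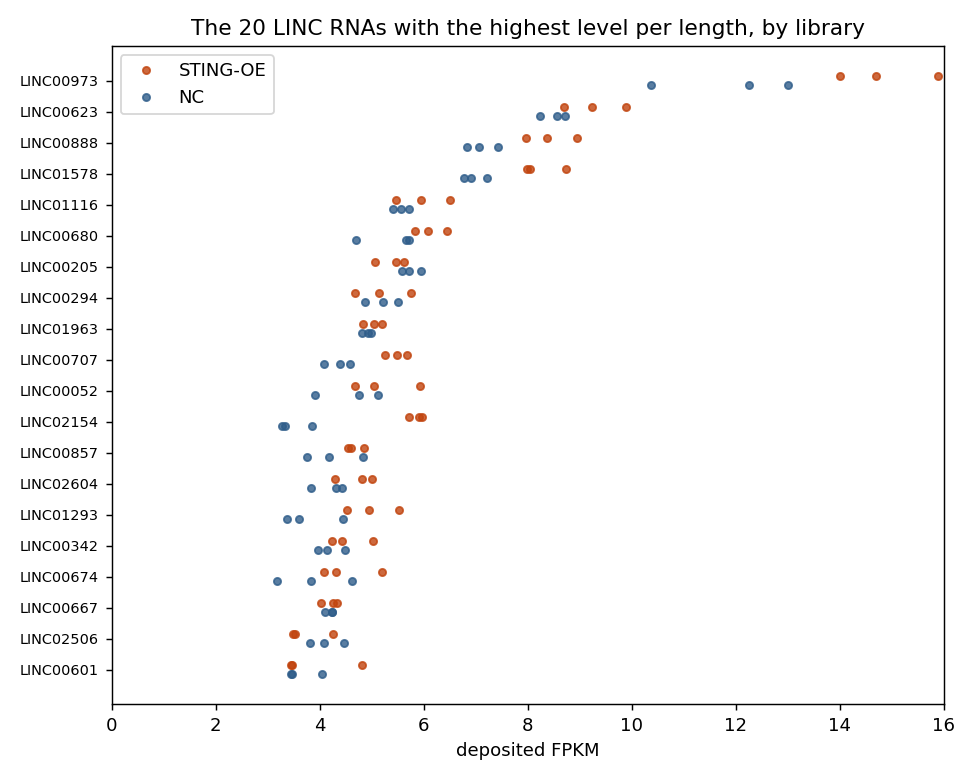
Deposited FPKM in each library for the 20 LINC RNAs with the highest mean, ordered from the highest at the top, with STING-OE and NC libraries in separate colours. LINC00973 lies at 10.4 to 15.9 FPKM, above all others, and below the leading 4 genes the levels run together between about 3 and 7 FPKM.

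LINC00888 was at 18.5, 20.3 and 19.2 CPM in STING-OE libraries 1 to 3, against 15.7, 16.6 and 17.4 CPM in NC libraries 1 to 3, so its groups were apart, with a log2 fold change of 0.22 (edgeR adjusted p = 0.190). In several other members with many reads the groups overlapped. LINC00667 had 46.8, 46.7 and 44.0 CPM in STING-OE libraries 1 to 3, against 46.2, 47.1 and 45.7 CPM in NC libraries 1 to 3. Its log2 fold change was -0.02 with an approximate 95% interval of -0.12 to 0.09.

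LINC00342 had 39.6, 45.9 and 41.0 CPM in STING-OE libraries 1 to 3, against 41.6, 39.1 and 37.4 CPM in NC libraries 1 to 3, a log2 fold change of 0.10 with an interval of -0.03 to 0.23. LINC00680 had 19.6 ± 1.10 CPM in STING-OE and 17.4 ± 2.05 CPM in NC (SD, n = 3 each), and its interval was -0.01 to 0.35. LINC00623 had 25.9 ± 1.49 CPM in STING-OE and 24.1 ± 0.950 CPM in NC (SD, n = 3 each), with an interval of -0.04 to 0.24. LINC00294 was at 18.4 ± 1.72 CPM in STING-OE and 18.7 ± 0.940 CPM in NC (SD, n = 3 each), with an interval of -0.19 to 0.14.

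LINC01116, LINC02381 and LINC00632 were not called, and LINC02381 and LINC00632 are named here after their values were seen. LINC01116, beside the HOXD cluster, had 13.8, 14.7 and 12.5 CPM in STING-OE libraries 1 to 3, against 12.4, 13 and 13.3 CPM in NC libraries 1 to 3, a log2 fold change of 0.08 with an interval of -0.10 to 0.27. LINC02381, beside the HOXC cluster, had 9.11 ± 1.12 CPM in STING-OE and 8.55 ± 0.153 CPM in NC (SD, n = 3 each). LINC00632, the X-linked transcript from whose locus the circular RNA CDR1as arises, had 22.2 ± 1.86 CPM in STING-OE and 20.5 ± 1.18 CPM in NC (SD, n = 3 each). The circular RNA itself cannot be told from the linear one in these tables.

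The annotation of the members was mixed. Of the 153, 129 had only lncRNA transcripts in the deposited tables, 7 had a pseudogene transcript, 18 a retained intron and 1, LINC00672, a protein-coding one. Members lay on 23 chromosomes, with 24 on chromosome 1 and 9 on X. Their median GC content was 46.9%, against 47.9% over all genes tested with a value. More than 10% of the 31-base words occurred in other genes for 54 members and more than 50% for 10, whose reads could be split between copies. None of these 10 was called by edgeR, and the smallest of their adjusted p-values was 0.433, for LINC01145.

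Many of the members share their place with other genes. A tested gene overlapped 72 of them, and 58 of these had an overlap on the other strand. Since the strand setting of the counting is not given, reads of such pairs cannot be told apart. The median log2 fold change was -0.02 for the 72 members with an overlap, 31 of them positive, and 0.09 for the 81 without, 55 of them positive. Of the members called, LINC00520 and LINC02154 had no overlapping tested gene.

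A member was called head to head when it started within 1000 bases of the start of a tested coding gene on the other strand, the arrangement of a bidirectional promoter. There were 14. None of these members and none of the coding partners passed the test. In 13 of the 14 pairs both log2 fold changes had the same sign, which is 92.9%, against 236 of 413 such pairs, or 57.1%, of other lncRNAs with at least 450 counts in all. The difference between these shares was not tested. Across the 14 pairs Pearson's r was 0.69 and Spearman's rho 0.86. This describes these pairs only, since all share the same 6 libraries and the spans of 2 pairs overlap.

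In the pairs with positive values, LINC01134 was at 0.18 and C1orf174 at 0.15, and LINC01534, which RefSeq names ZNF567-DT, was at 0.09 and the zinc finger gene ZNF567 at 0.20 on the log2 scale. In those with negative values, LINC01137 was at -0.23 and ZC3H12A, which encodes the RNase Regnase-1 that degrades inflammatory messenger RNAs, at -0.19. LINC01184 was at -0.17 and SLC12A2, a sodium-potassium-chloride cotransporter gene, at -0.05. LINC01089 was at -0.42 and the histone methyltransferase gene SETD1B at -0.01, so the size was not shared. The sizes also lay apart for LINC00893 at 0.33 and EOLA1 at 0.07, whose spans overlap, and for LINC01521 at -0.30 and PATZ1 at -0.06. LINC00235 and CAPN15 were at -0.02 and 0.01 and were the pair with opposite signs.

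**Figure D4:**
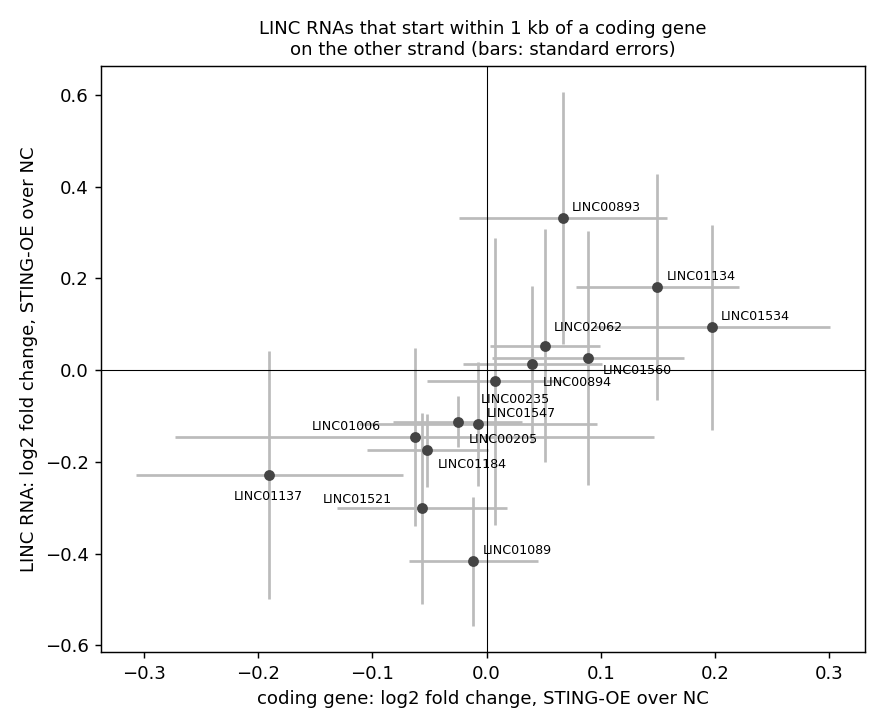
Log2 fold change of the LINC RNA (vertical axis) against that of the coding gene that starts within 1 kb on the other strand (horizontal axis) for 14 pairs, STING-OE over NC, with standard errors as bars. Points run from LINC01137 at the lower left to LINC01134 and LINC01534 at the upper right. LINC01089 is lowest, at a coding change near 0, and LINC00893 highest, at a coding change of 0.07. LINC01521 is low at a coding change of -0.06. The bars of most points cross 0.

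LINC00205 had the most reads of the 14. It had 42.0, 45.6 and 44.9 CPM in STING-OE libraries 1 to 3, against 48.7, 47.8 and 46.6 CPM in NC libraries 1 to 3. All STING-OE values lay below, and the log2 fold change was -0.11 (SE 0.056; edgeR adjusted p = 0.381). Its partner POFUT2, which adds O-fucose to secreted proteins, had 90.2 ± 7.08 CPM in STING-OE and 91.8 ± 2.71 CPM in NC (SD, n = 3 each). On its other side, 107359 bases away, COL18A1, the gene for collagen XVIII, fell to 16.6 ± 0.721 CPM in STING-OE, against 27.6 ± 1.07 CPM in NC (SD, n = 3 each; log2 fold change -0.73, edgeR adjusted p = 0.000118). Over all members, 8 of 283 nearest tested coding genes were called, or 2.83%, against 1.99% of the 14749 coding genes tested.

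Promoter sequences of RefSeq (GRCh38.p14), from 250 bases before to 50 after the start of each gene, were matched to 111 members by symbol. LINC00520, LINC02154 and LINC00707, the members called, were not among them. Shown are 3 members whose groups were apart, LINC01278, LINC01578 and LINC00888, the head-to-head members with the most reads, LINC00205 and LINC01184, and LINC00460, which had the most negative log2 fold change. Each is written 5′ to 3′ on the strand of the gene, and capitals mark matches on either strand to the motifs named after them. The windows are chrX:63561046-63561345 on the minus strand for LINC01278, chr15:92882593-92882892 on the plus strand for LINC01578 and chr3:183447358-183447657 on the plus strand for LINC00888. Those of LINC00205, LINC01184 and LINC00460 are chr21:45287802-45288101 on the plus strand, chr5:128083126-128083425 on the minus strand and chr13:106376314-106376613 on the plus strand.
LINC01278: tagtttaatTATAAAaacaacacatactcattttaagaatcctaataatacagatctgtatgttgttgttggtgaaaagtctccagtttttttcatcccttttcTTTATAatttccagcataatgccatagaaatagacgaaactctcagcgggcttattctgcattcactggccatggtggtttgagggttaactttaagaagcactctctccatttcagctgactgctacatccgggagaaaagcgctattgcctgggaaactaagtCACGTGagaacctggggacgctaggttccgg
LINC01578: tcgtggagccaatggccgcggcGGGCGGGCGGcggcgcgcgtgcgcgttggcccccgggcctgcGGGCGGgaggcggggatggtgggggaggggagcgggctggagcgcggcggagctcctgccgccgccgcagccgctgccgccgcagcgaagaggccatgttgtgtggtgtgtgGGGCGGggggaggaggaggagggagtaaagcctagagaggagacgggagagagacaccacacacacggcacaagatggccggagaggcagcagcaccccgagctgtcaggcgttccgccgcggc
LINC00888: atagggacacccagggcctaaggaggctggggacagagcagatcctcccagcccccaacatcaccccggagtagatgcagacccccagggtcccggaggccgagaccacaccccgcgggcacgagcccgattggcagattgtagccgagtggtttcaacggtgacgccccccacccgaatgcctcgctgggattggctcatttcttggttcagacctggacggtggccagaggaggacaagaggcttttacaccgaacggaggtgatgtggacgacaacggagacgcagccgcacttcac
LINC00205: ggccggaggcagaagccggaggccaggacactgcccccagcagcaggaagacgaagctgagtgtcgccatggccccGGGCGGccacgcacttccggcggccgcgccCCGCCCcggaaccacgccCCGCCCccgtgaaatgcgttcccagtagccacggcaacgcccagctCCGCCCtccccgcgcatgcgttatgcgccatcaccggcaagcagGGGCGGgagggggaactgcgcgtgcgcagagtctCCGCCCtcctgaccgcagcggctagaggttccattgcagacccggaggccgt
LINC01184: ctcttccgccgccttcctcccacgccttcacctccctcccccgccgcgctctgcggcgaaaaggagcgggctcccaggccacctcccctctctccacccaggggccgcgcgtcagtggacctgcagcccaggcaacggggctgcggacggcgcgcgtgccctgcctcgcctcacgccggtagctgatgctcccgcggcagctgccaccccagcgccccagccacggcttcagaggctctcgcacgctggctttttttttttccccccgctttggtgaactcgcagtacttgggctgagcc
LINC00460: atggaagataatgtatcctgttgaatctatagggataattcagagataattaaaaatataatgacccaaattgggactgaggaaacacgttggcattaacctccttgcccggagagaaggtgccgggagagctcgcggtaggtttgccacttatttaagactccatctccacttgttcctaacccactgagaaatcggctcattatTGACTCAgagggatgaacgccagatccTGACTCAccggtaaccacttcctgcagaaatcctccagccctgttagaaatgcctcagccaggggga
In LINC01278 the capitals are the TATA box (TATAAA) and the E-box (CACGTG). In LINC01578 and LINC00205 they are the GC box (GGGCGG), and in LINC00460 the AP-1 site (TGANTCA). LINC00888 and LINC01184 held no match to any motif searched. The deposited start of LINC01578 lies 63303 bases from the RefSeq start and that of LINC00460 2087 bases, whereas the other 4 lie within 44 bases of it.

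Motifs were searched on both strands. The TATA box, TATAAA, occurred in 17 of the 111 member promoters (15.3%), against 12.0% of all 27305 promoters and 15.2% of those of lncRNA genes. The GC box, GGGCGG, occurred in 48 (43.2%), against 44.6% of all and 25.4% of lncRNA promoters. The AP-1 site, TGANTCA, occurred in 20 (18.0%), against 7.76% of all and 10.5% of lncRNA promoters.

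For the factors downstream of STING the matches were few, in members as in all promoters, and the members called were not searched. The core of the interferon-stimulated response element occurred in 3 member promoters (2.70%), against 3.65% of all and 4.30% of lncRNA promoters. These were LINC01358, LINC01138 and LINC00882. Their levels were 1.95, 8.64 and 8.07 CPM in STING-OE and 1.96, 8.68 and 7.98 CPM in NC. The NF-kB motif occurred in 1 (0.901%), that of LINC02762, against 0.443% of all and 0.454% of lncRNA promoters. This gene had 2.37 CPM in STING-OE and 2.39 CPM in NC. Of the other motifs searched, the cAMP response element, TGACGTCA, occurred in 3 (2.70%), against 1.98% of all and 1.13% of lncRNA promoters. The E-box occurred in 7 (6.31%), against 7.43% of all and 5.44% of lncRNA promoters. A match is a description of the letters and not a bound site.

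Long noncoding RNAs outside the members give the setting. Of 4094 other lncRNA genes tested, from which LINC genes below the count sum were not removed, 13 were called, or 0.318%. Of the 1253 with at least 450 counts in all, 11 were called, or 0.878%, 8 higher and 3 lower. The median log2 fold change of these 1253 was 0.02, and 54.0% were positive. From a list of 60 named lncRNAs 59 were found and 52 tested, of which 5 rose, 1 fell and 46 were not called, and the median of their log2 fold changes was 0.06. Of all genes tested 1.49% were called, and 2.13% of those with at least 450 counts in all. The list was picked by name and holds very abundant RNAs such as MALAT1, so its share cannot be compared with these. The count of 6 was 3 without any 1 of STING-OE library 2 and NC libraries 1, 2 and 3, and without STING-OE library 1 it was 4, with 0 lower. HCP5 and SNHG1 passed in each of these fits.

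HCP5, from the major histocompatibility class I region, rose to 41.6, 37.0 and 41.5 CPM in STING-OE libraries 1 to 3, against 28.0, 27.8 and 25.1 CPM in NC libraries 1 to 3, with the groups apart. Its log2 fold change was 0.57 (edgeR adjusted p = 0.000793). The snoRNA host genes SNHG1 and GAS5 rose to 202 ± 13.6 and 145 ± 10.8 CPM in STING-OE, against 155 ± 3.07 and 123 ± 5.21 CPM in NC (SD, n = 3 each; edgeR adjusted p = 0.00199 and 0.0409). GAS5 was not called with the GC and length correction, and of the fits with 1 library left out it was called only without STING-OE library 3. MEG3, a maternally expressed imprinted RNA, rose to 60.9 ± 6.17 CPM in STING-OE, against 47.6 ± 1.29 CPM in NC, and UCA1, first described in bladder cancer, to 86.9 ± 4.02 CPM in STING-OE, against 74.6 ± 0.836 CPM in NC (SD, n = 3 each; edgeR adjusted p = 0.0143 and 0.0374). MEG3 was not called without STING-OE library 2 or any 1 NC library, and of the fits with 1 library left out UCA1 was called only without STING-OE library 1. MALAT1, the nuclear speckle RNA, fell to 746 ± 10.5 CPM in STING-OE, against 1043 ± 106 CPM in NC (SD, n = 3 each; log2 fold change -0.48, edgeR adjusted p = 0.00221). It was not called without STING-OE library 1 or with the GC and length correction, where NORAD was the 1 gene of the list called lower. NEAT1, the scaffold of paraspeckles, had 654 ± 30.8 CPM in STING-OE and 708 ± 34.0 CPM in NC, and NORAD 430 ± 16.8 CPM in STING-OE and 460 ± 6.92 CPM in NC (SD, n = 3 each).

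The members at the edge of the count threshold were low in all libraries. Just inside it were LINC01843 with 455 counts and LINC01204 with 464, and just outside LINC00663 with 447 and LINC02614 with 434, all of about 1 CPM. LINC01843 had 77, 63 and 78 counts in STING-OE libraries 1 to 3, against 56, 92 and 89 in NC libraries 1 to 3. LINC01204 had 79, 86 and 63 counts in STING-OE libraries, against 55, 100 and 81 in NC libraries. LINC00663 had 98, 68 and 52 counts in STING-OE libraries, against 105, 71 and 53 in NC libraries, and LINC02614 had 67, 69 and 55 in STING-OE libraries, against 104, 68 and 71 in NC libraries. Of the 1053 LINC genes below the threshold 256 entered the test.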

How the data were processed

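Gene expression was measured by RNA sequencing in 3 STING-OE and 3 NC libraries of U251 cells. The libraries were made from Trizol-extracted total RNA with an Illumina TruSeq RNA kit, per the labels' protocols. Per the submitters' processing notes Bowtie 0.12.2 was used. Which program counted the reads, with which strand setting, annotation and build, is not given in the sources used here. The deposited tables hold the authors' read counts, whole numbers per Ensembl gene and not normalized, and the authors' FPKM values, which are scaled for depth and gene length and were used only to compare levels between genes. All rows named a gene. GENCODE v29 held 40903 of the 42307 gene IDs, with the same start or end, to within 1 base, for 89.8% of them, and the build was therefore taken as GRCh38.

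The test was the two-sided quasi-likelihood test of edgeR 4.0.16 (R 4.3.3), after filterByExpr by group and TMM scaling, with robust dispersion and no covariate over both groups of 3 libraries. P-values were adjusted by Benjamini-Hochberg over all genes tested, with a threshold of 0.05. SE values were taken as |log2 fold change| over the square root of F, so they and the intervals are approximate. CPM values use TMM-scaled library sizes, and means are given with SD. The procedure was tested on simulated data. Chi-square values of counts per gene between replicates of a group were 11.7 to 23.0, so no libraries were merged. The number of reads limits the precision of low genes.

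The members and gene lists were chosen with earlier results of these data known. Values in every library, or means with SD, are given for members past the threshold, and the 8 highest in CPM and in FPKM, 16 genes in all, to which members of small p would have been added had there been fewer than 14. Other genes were named after their values were seen. As alternatives, counts were scaled by RLE, by upper quartiles or by totals. The others were no filter, a mean of at least 1 CPM, DESeq2 1.42.0, limma-voom (limma 3.58.1), the replicate number as a block, each library left out, count sums for membership 2 times lower and higher and, chosen after seeing the data, a correction for GC content and transcript length.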

Additional observations from a re-analysis of the deposited data

How the results depend on the processing

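LINC00520 and LINC02154 passed the threshold in all 15 alternatives, with log2 fold changes of 0.74 to 0.93 and 0.67 to 0.79. LINC00707 was 0.27 to 0.34 and missed it without STING-OE library 2 or NC library 2. The number of members past the threshold was 5 with a mean of at least 1 CPM, 5 with the GC and length correction (chosen after seeing the data) and 8 in DESeq2. It was 4 with total-count scaling and with no filter, 3 with RLE or upper-quartile factors, limma-voom and count sums for membership 2 times lower or higher, and 2 to 3 with 1 library left out. LINC00667 turned positive with total-count scaling (0.0138) and without STING-OE library 3, with -0.0321 to 0.0104 over the libraries left out. LINC00294 turned positive with total-count scaling (0.00719) and without STING-OE library 1 or NC library 1, with -0.0962 to 0.0384. Neither was near the threshold, and the cause was not tested. STING1 stayed past the threshold in all alternatives, at 0.53 to 0.67.

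The list of other named lncRNAs gave 6 genes, and 3 to 6 with 1 library left out, 7 with the GC and length correction (without GAS5 and MALAT1, with NORAD lower) and 8 in DESeq2. HCP5 and SNHG1 passed in all 15 alternatives. Over all genes the count was 324, and 60 to 741 with 1 library left out (60 without NC library 1 or 2, 741 without STING-OE library 1), 645 with a mean of at least 1 CPM, 506 with the GC and length correction and 1032 in DESeq2. The groups share replicate numbers. Over all genes tested, deviations of same-numbered libraries correlated by 0.055, 0.023 and 0.017, and those of differently numbered ones by -0.040 to 0.019. Such correlations cannot tell whether same-numbered libraries shared a culture or handling. With the replicate block 3 members, 4 of the other lncRNAs (without GAS5 and UCA1) and 120 genes in all passed, and STING1 was at 0.60.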
